A study of Mus musculus and Homo sapiens with 18 samples.

Results

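The chemokine and chemokine receptor genes of 3 RNA-seq count tables are described here. They were chosen by symbol: every row starting with Ccl, Cxcl, Ccr, Cxcr or Xcl followed by a digit, together with Cx3cl1 and Cx3cr1, in capital letters in the human table, without antisense and pseudogene rows. This gave 180 of the 162600 rows of the 3 tables, with 55 of 46882 in the mouse lens, 62 of 54838 (57 symbols) in lens progenitor-like cells made from mouse neural stem cells (NLPCs) and 63 of 60880 in the human lens epithelial line HLE-B3. From each of them 3 rows were left out. In the mouse tables Cxcl11 was one of them, because the annotation of the C57BL/6 genome types it as a polymorphic pseudogene.

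Each of the 3 systems had 3 control and 3 deletion libraries. Lenses were dissected in the third postnatal week from C57BL/6 mice given tamoxifen at P7 and P8. Ctrl mice are taken here as Nestin-CreERT2; QkL/+, and Qk-iCKO mice were Nestin-CreERT2; QkL/L. Both groups would then carry the inducible Cre, driven by the Nestin promoter, and at least 1 allele of Qk with loxP sites around exon 2. The study's methods also allow Nestin-CreERT2; Qk+/+ mice and QkL/L mice without Cre as controls. They do not give the genotype of each control library. Qk, QKI in human, encodes the RNA-binding protein Quaking. NLPCs were derived with Noggin (100 ng/ml) and then BMP4 and BMP7 (both at 20 ng/ml) with bFGF (100 ng/ml) from neural stem cells of Nestin-CreERT2; QkL/L pups at P1. The libraries labelled Qk-/- came from stem cells in which 4-hydroxytamoxifen induced the deletion, and they were compared with libraries labelled WT. WT HLE-B3 cells, an immortalized line, were compared with QKI KO cells made with CRISPR-Cas9 from a lentivirus and enriched with puromycin, which the sources used here do not describe as 1 clone.

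The targeted gene did not check every label. QKI had 18447 to 21519 counts per library in WT and 7273 to 7522 in QKI KO HLE-B3 cells, a log2 fold change of −1.34 (SE 0.05, adjusted p = 1.85e-11). Qk had 1453, 1625 and 1852 counts in Ctrl and 1637, 898 and 1048 in Qk-iCKO lenses (log2 fold change −0.31, SE 0.14, adjusted p = 0.20). In NLPCs Qk was higher in the libraries labelled Qk-/- (log2 fold change 0.41, SE 0.09, adjusted p = 0.0270), opposite in direction to the label. The study reports, from immunofluorescence, a complete loss of Quaking in the stem cells and NLPCs after the deletion was induced. Counts over the whole gene include its undeleted exons, so they do not measure the deletion of exon 2. The total count per library was 10319320 to 16425331 in the lens, 28154202 to 68243360 in NLPCs and 69190864 to 81384471 in HLE-B3 cells. The library Qk-iCKO 1 stood apart from the other lens libraries, with 67.7% of its counts on its 100 most abundant genes against 77.0 to 78.5% in the others, and the library labelled Qk-/- 2 was the shallowest of the NLPCs and correlated least with the others (mean correlation of 0.892 against 0.948 to 0.957). Where a member's call, or that of a list gene named here, was lost without 1 of these libraries, the value without it is given.

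Chemokines are small secreted proteins that direct the movement of cells through receptors coupled to G proteins. They are classed by the spacing of their first cysteines as CC, CXC, XC and CX3C ligands. CC ligands act mainly on monocytes, macrophages, eosinophils and lymphocytes, while the CXC ligands closest to CXCL8 act on neutrophils. Many are silent at rest and are switched on by TNF, interleukin 1 and Toll-like receptor signals through NF-κB, whereas others, such as CXCL12, CXCL14 and CX3CL1, are made without inflammation. The lens has no vessels of its own once those of the embryonic eye regress, and it is closed off by a capsule.

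In the lens, 8 of the 11 members with enough counts to be tested were higher in Qk-iCKO mice and none was lower (edgeR's quasi-likelihood test on raw counts, adjusted p under 0.05 by the method of Benjamini and Hochberg over all genes tested). Of all 12201 genes tested, 8.38% were higher and 3.88% were lower. The 8 were 6 of the 8 CC ligands tested (Ccl2, Ccl6, Ccl7, Ccl8, Ccl9 and Ccl24), the receptor Ccr1 and the CXC ligand Cxcl14. None of the 8 overlapped between groups, as 35.3% of all genes tested did not. At an unadjusted p under 0.05 the same 8 passed, where 28.7% of all genes did. The median log2 fold change of the 11 was 5.42, and that of all genes tested was 0.0064. The members tested are those that passed a filter on low counts, which a gene at 0 in 1 group passes through the other group, so the 11 are not a fair sample of the 55. Of the other 44 members, 17 had no count in any lens library and 27 had between 1 and 42 counts in their highest library.

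**Figure D1:**
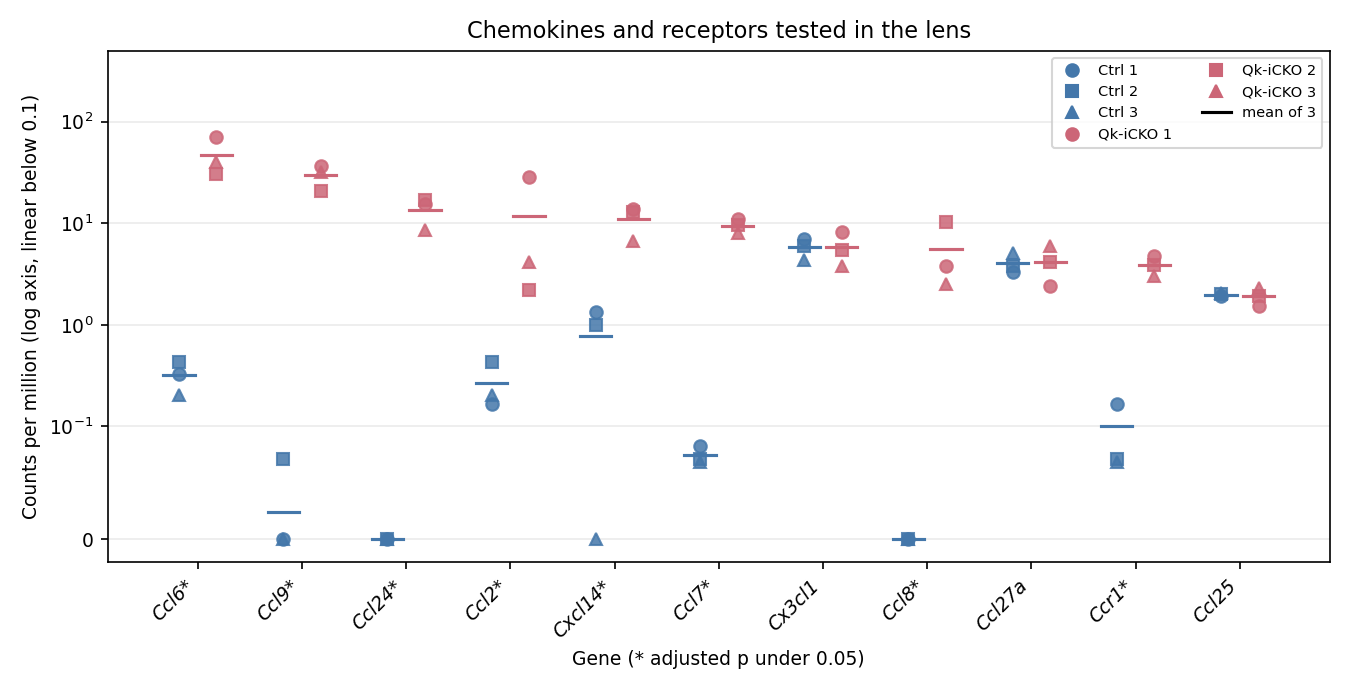
CPM (counts scaled to TMM library sizes, log axis that is linear below 0.1) of the 11 members tested in the lens, per library of Ctrl (blue) and Qk-iCKO (red) mice, with a short line at the mean of 3 libraries. For the 8 genes with an asterisk every Qk-iCKO library lies above every Ctrl library, while Cx3cl1, Ccl27a and Ccl25 overlap between the groups.

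Ccl2, Ccl7 and Ccl8, of the monocyte chemoattractant group, lie in one cluster on chromosome 11 (GRCm38). Ccl7, a ligand of Ccr2 and Ccr1, had 1, 1 and 1 count in the Ctrl libraries and 178, 99 and 79 in the Qk-iCKO libraries. Its level was 0.0743 ± 0.0076 CPM (the usual depth-scaled count, here on TMM library sizes; SD, n = 3) in Ctrl and 9.49 ± 1.47 in Qk-iCKO lenses, for a log2 fold change of 6.83 (SE 0.32, edgeR adjusted p = 0.000110). The 3 Qk-iCKO libraries were close to each other in this gene. The ratio of the pooled counts was 132-fold (95% interval 44.8 to 643.5, exact, counting error only).

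Ccl2, the main ligand of Ccr2 and the classical attractant of monocytes, had 2, 6 and 3 counts in Ctrl and 467, 23 and 41 in Qk-iCKO libraries. Qk-iCKO 1 was far above the other two, so the SD of the group (11.7 ± 14.7 CPM, n = 3) exceeded its mean, although no Qk-iCKO library was as low as a Ctrl library. The log2 fold change was 5.42 (SE 1.17, edgeR adjusted p = 0.0250), and 3.51 (adjusted p = 0.0106) without Qk-iCKO 1. Without Ctrl 1, Ctrl 2 or Ctrl 3 the adjusted p was 0.105, 0.0842 and 0.104, so the call for Ccl2 was lost with any Ctrl library left out. Ccl8, another member of the group, had 0, 0 and 0 counts in Ctrl and 62, 107 and 25 in Qk-iCKO libraries, and was at least 72.0-fold higher over the group, against a floor of 3 counts in the pooled Ctrl libraries (edgeR adjusted p = 0.0103).

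Ccl6 and Ccl9, a pair of neighbouring rodent genes whose proteins signal through Ccr1, had the highest CPM of all members in Qk-iCKO lenses. Ccl6 had 4, 6 and 3 counts in Ctrl and 1143, 313 and 402 in Qk-iCKO libraries, or 0.322 ± 0.111 against 47.0 ± 20.7 CPM (SD, n = 3; log2 fold change 7.16, SE 0.46, edgeR adjusted p = 0.000276). Ccl9 had 0, 1 and 0 counts against 600, 214 and 318 (log2 fold change 9.77, SE 0.52, edgeR adjusted p = 0.000173). With 1 count in the pooled Ctrl libraries its ratio was 1260-fold, with an exact 95% interval of 226 to 49812 for counting error. Neither gene had a Ctrl library above 6 counts.

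Ccl24 (eotaxin-2), a ligand of the eosinophil receptor Ccr3 that alternatively activated macrophages are known to make, had 0, 0 and 0 counts in Ctrl and 250, 175 and 86 in Qk-iCKO libraries. It was at least 189.6-fold higher over the group, against the same floor (edgeR adjusted p = 0.00124). It was the member with the highest fitted log2 fold change, a value that depends on the prior count where a group is at 0. Ccr1, a receptor of Ccl6, Ccl7 and Ccl9 that is found on monocytes, macrophages and neutrophils, had 2, 1 and 1 counts against 78, 40 and 30 (log2 fold change 5.18, SE 0.44, edgeR adjusted p = 0.000778). It was the only one of 18 receptors in the lens table with enough counts for the test.

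Cxcl14, a CXC ligand that epithelia make without inflammation, had 16, 14 and 0 counts in Ctrl and 224, 132 and 66 in Qk-iCKO libraries (0.775 ± 0.691 against 11.1 ± 3.84 CPM; SD, n = 3). Its log2 fold change was 3.87 (SE 0.73, edgeR adjusted p = 0.0156), the smallest of the 8. One Ctrl library had no count of it, and the adjusted p was 0.0531 without Ctrl 1 and 0.0616 without Ctrl 2. It remained called without Qk-iCKO 1 (adjusted p = 0.0347).

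The 3 members that did not pass were those with the most counts in Ctrl lenses. Cx3cl1 (fractalkine), a ligand anchored in the membrane, had 84, 84 and 64 counts in Ctrl and 135, 56 and 38 in Qk-iCKO libraries (log2 fold change 0.04, SE 0.31, edgeR adjusted p = 0.956). Ccl27a, a ligand of Ccr10 in skin, had 40, 53 and 75 against 39, 43 and 59 (log2 fold change 0.01, SE 0.36, adjusted p = 0.990), and its counts are uncertain because near-identical copies of the gene lie close by. Ccl25, the ligand of Ccr9 in thymus and gut, had 23, 28 and 30 against 25, 20 and 23 (log2 fold change −0.05, SE 0.27, adjusted p = 0.919). The groups overlapped in all 3 genes. On the scale of CPM per kilobase of exon, Ccl27a (1.72) and Cx3cl1 (1.47) had the highest mean levels of the tested members in Ctrl lenses, and the next were Cxcl14 at 0.424 and Ccl25 at 0.267. In Qk-iCKO lenses the order of mean levels on this scale was Ccl6 (26.2), Ccl7 (11.9), Ccl8 (10.9), Ccl24 (10.5), Ccl2 (10.3) and Ccl9 (9.81), where the 5 genes after Ccl6 differed from one another by less than the spread of Ccl2 between its libraries.

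Among the members under the filter, the following were chosen after their counts were seen. With every gene of at least 1 count in the test, further members passed, each higher in Qk-iCKO lenses. Cxcl1, a neutrophil attractant, had 0, 0 and 0 counts in Ctrl and 25, 2 and 1 in Qk-iCKO libraries, so that most of its counts were in Qk-iCKO 1 (adjusted p = 0.00625 in that fit). Cxcr4, the receptor of Cxcl12, had 0, 0 and 5 against 35, 7 and 10 (adjusted p = 0.00631), and Cxcl12 itself 1, 2 and 5 against 32, 5 and 5 (adjusted p = 0.0392). For both of them Qk-iCKO 1 held more counts than the other two libraries together. Without Qk-iCKO 1, in an alternative chosen after seeing the data, these 3 genes were not called (log2 fold changes of 3.92, 2.67 and 1.27; adjusted p = 0.354, 0.122 and 0.521). Cxcl16 had 1, 3 and 0 against 10, 7 and 12 counts (adjusted p = 0.0219) and Ccl12, also of the monocyte chemoattractant group, 0, 0 and 1 against 5, 5 and 5 (adjusted p = 0.0429). Without Qk-iCKO 1 Cxcl16 was called (adjusted p = 0.0395) and Ccl12 was not (adjusted p = 0.0706).

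Of the receptors of the ligands that rose, Ccr2 and Ccr3 stayed near 0 in both groups. Ccr2, the receptor of Ccl2 and Ccl7, had 0, 0 and 2 counts in Ctrl and 2, 0 and 0 in Qk-iCKO libraries, and Ccr3, the receptor of Ccl24, had 0, 0 and 0 against 0, 1 and 1. At this depth a difference in these 2 receptors was not detectable. Cx3cr1, the receptor of Cx3cl1 on microglia and monocytes, was under the filter with 5, 7 and 4 against 5, 19 and 1 counts, so that its groups overlapped. Summed over all 18 receptors, the counts were 9, 11 and 13 in Ctrl and 166, 79 and 80 in Qk-iCKO libraries (0.746 to 0.892 against 7.65 to 10.2 CPM). Summed over all 37 ligands they were 173, 203 and 190 against 3230, 1208 and 1173 (13.0 to 14.5 against 117 to 198 CPM). A Ctrl library held a count in 14 to 17 of the 55 members, and a Qk-iCKO library in 26 to 32.

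The lens ligands that rose were grouped by position. Between 82035571 and 82305690 of chromosome 11 (GRCm38) lie 6 members, of which all 3 tested (Ccl2, Ccl7 and Ccl8) were higher, while Ccl1 had no count. Between 83525778 and 83664683 of the same chromosome lie 5 members, of which both tested (Ccl9 and Ccl6) were higher, while Ccl5 had no count in any lens library and its neighbours Ccl3 and Ccl4 had at most 4. Of the 7 receptor genes between 123678439 and 124147699 of chromosome 9, Ccr1 was the one tested. No member of the Cxcl1 to Cxcl5 group on chromosome 5 was tested.

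RefSeq promoters (GRCm38.p6) were at hand for 8 of the 11 members tested, 5 of them higher in Qk-iCKO lenses. They show which of these genes that rose together hold a motif for a factor that is known to act on chemokine genes. The motifs searched in the 300 bases from 250 before to 50 after the start, on both strands, were the κB consensus of NF-κB, the shorter κB core GGAANTTCC, which overlaps it, the AP-1 motif TGANTCA and the PU.1 motif GAGGAAGT. The 150 bases before the start are printed 5′ to 3′ on the gene's strand, with matches in capitals. The Ccl9 and Ccr1 promoters hold a match and those of Ccl6 and Ccl8 hold none:
Ccl9 (chr11:83578637-83578786, minus strand): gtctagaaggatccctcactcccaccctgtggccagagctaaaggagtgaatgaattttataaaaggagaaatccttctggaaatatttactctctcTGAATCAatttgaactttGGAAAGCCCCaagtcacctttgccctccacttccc
Ccr1 (chr9:123968693-123968842, minus strand): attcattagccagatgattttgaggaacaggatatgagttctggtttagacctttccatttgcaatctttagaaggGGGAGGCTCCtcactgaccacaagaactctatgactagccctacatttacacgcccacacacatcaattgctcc
Ccl6 (chr11:83593088-83593237, minus strand): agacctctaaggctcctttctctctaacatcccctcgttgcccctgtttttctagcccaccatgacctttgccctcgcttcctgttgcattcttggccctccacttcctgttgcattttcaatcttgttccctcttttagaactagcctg
Ccl8 (chr11:82115035-82115184, plus strand): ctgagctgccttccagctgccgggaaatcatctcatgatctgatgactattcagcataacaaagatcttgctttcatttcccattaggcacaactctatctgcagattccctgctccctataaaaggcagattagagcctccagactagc

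With the first base of the transcript as position 0, the κB consensus lay at −35 to −26 in Ccl9, on the opposite strand, and at −74 to −65 in Ccr1. The Ccl9 window also held the AP-1 motif at −53 to −47. Of all 32851 mouse promoters of this length, 8.93% held the κB consensus or the core, 7.81% the AP-1 motif and 3.20% the PU.1 motif, which none of the 8 held. The windows of the 3 members that were not called held none of the 4 motifs. A match is a string of letters and not a site shown to be bound.

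Markers of other cells moved with these genes. The macrophage list (17 genes in the table) summed to 4.42 to 7.55 CPM in Ctrl and 220 to 273 CPM in Qk-iCKO lenses, and the leukocyte list (7 genes) to 1.21 to 1.78 against 27.7 to 51.9 CPM. The 14 macrophage and 7 leukocyte markers that passed the filter were all higher, but most of them passed it only through their counts in Qk-iCKO libraries, so that these numbers are no support, and Fcgr1, Aif1 and Cd14 were under the filter. Ptprc (CD45, found on all leukocytes) had 1, 0 and 1 counts against 45, 34 and 56, Csf1r, the receptor for the growth factor of macrophages, 8, 14 and 26 against 405, 382 and 349, and Adgre1 (F4/80) 4, 0 and 4 against 144, 94 and 94. The groups did not overlap in these 3 defining markers (edgeR adjusted p = 0.00166, 0.000548 and 0.00121), as 35.3% of all genes tested did not. They too passed the filter through their Qk-iCKO counts, so these p-values are no support. Of the markers tested, 1 of 2 for microglia, 1 of 2 for neutrophils, 2 of 6 for endothelium, 1 of 6 for fibroblasts and pericytes and 0 of 1 for T and NK cells were higher, and none of the B cell and mast cell markers had enough counts. Over all genes tested in the lens, 8.38% were higher and 3.88% were lower. Among the rest, none of 4 pigment cell, 7 retina, 5 astrocyte, 4 neuron and 1 erythroid markers passed, no oligodendrocyte marker was tested, and 1 of 9 lens markers, Mip, was lower (118428 to 173354 against 30917 to 51267 counts). Lists with few or no calls also varied between libraries. The pigment cell markers summed to 9.28, 7.49 and 4.26 CPM in Ctrl and 139, 23.5 and 8.68 CPM in Qk-iCKO libraries, highest in Qk-iCKO 1, the library with the most ligand counts. The retina markers summed to 76.4, 573 and 2.47 against 84.7, 35.8 and 13.7 CPM, highest in Ctrl 2. The endothelial list stood at 11.02 to 15.9 against 20.1 to 32.2 CPM, the list for fibroblasts and pericytes at 80.1 to 110 against 123 to 188 CPM, and the neutrophil list at 2.13 to 2.49 against 4.54 to 6.10 CPM, without overlap between the groups. The lens markers summed to 203007 to 223387 against 112601 to 182796 CPM, lowest in Qk-iCKO 1. In bulk tissue, more cells that make a transcript and more of it per cell cannot be told apart, and the part of these markers in the chemokine levels was not tested. Libraries also differed in sex as read from 4 Y-linked genes, with 0, 0 and 3 counts in Ctrl and 1, 1051 and 930 in Qk-iCKO libraries. The groups thus differed in sex as well as in the deletion, and the part of sex in the chemokine levels was not tested.

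**Figure D2:**
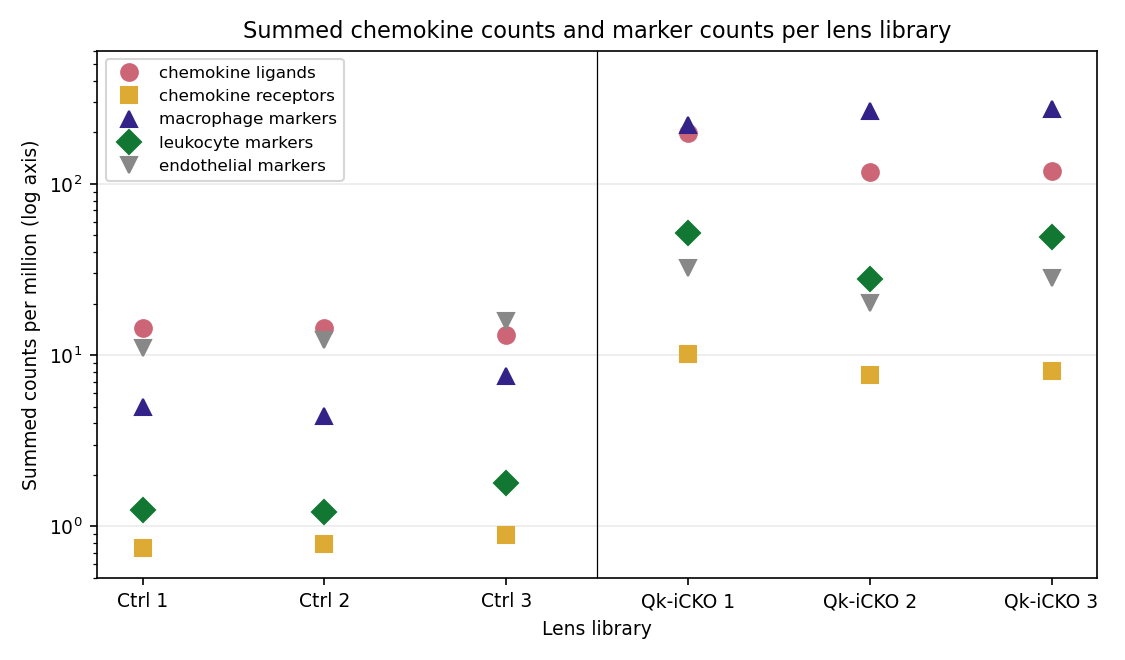
Summed CPM (log axis) of the 37 chemokine ligands, the 18 receptors and 3 lists of marker genes in each lens library, with the 3 Ctrl libraries on the left of the line and the 3 Qk-iCKO libraries on the right. The ligands lie at 13.0 to 14.5 in Ctrl and 117 to 198 in Qk-iCKO lenses, and the macrophage markers at 4.42 to 7.55 and 220 to 273.

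Genes around the chemokine system were counted in lists. Of 2 atypical receptors tested, which bind chemokines or related ligands without signalling through G proteins or sit close to the family, both were higher: Ackr3, which clears Cxcl12, had 20, 16 and 14 counts against 80, 48 and 22 (log2 fold change 1.66, SE 0.39, edgeR adjusted p = 0.0334), and Cmklr1, the chemerin receptor, 0, 3 and 3 against 45, 29 and 22 (4.07, SE 0.57, adjusted p = 0.00544). Cmklr1 signals through G proteins. Of 12 genes for cytokines, their receptors and factors that switch chemokines on, 7 were higher and 1 was lower (median log2 fold change 1.51), with Tlr4 at 4.02 (SE 0.33, adjusted p = 0.000676) and Stat3 at 1.53 (SE 0.18, adjusted p = 0.00241) among the higher. Of 12 NF-κB genes 5 were higher (median 0.96), among them Nfkbia, an inhibitor that NF-κB itself induces (42, 58 and 54 against 483, 101 and 131 counts; log2 fold change 2.23, SE 0.41, adjusted p = 0.0141). Of 21 genes for signalling from the receptors 6 were higher (median 0.14), with Dock2, a leukocyte migration gene, at 2.45 (SE 0.25, adjusted p = 0.00158). Of 10 genes for chemokine processing and leukocyte adhesion 6 were higher (median 3.98), with Itgam at 5.81 (SE 0.53, adjusted p = 0.000974) and Icam1, the endothelial ligand of leukocyte integrins, at 4.76 (SE 0.78, adjusted p = 0.00901). Without Qk-iCKO 1 Ackr3 was not called (1.46, adjusted p = 0.0812), and neither were Nfkbie and Mmp2 of these lists (adjusted p = 0.0722 and 0.0542), while Nfkbia was at 1.60 (adjusted p = 0.00548). Itgam and Itgb2 also stand in the marker lists. Of all genes tested in the lens, 8.38% were higher and 3.88% were lower. Genes near 0 in Ctrl, such as Cmklr1, entered the test only through their Qk-iCKO counts. The numbers of calls and the medians of these lists are therefore no support. None of the chemokine genes with other symbols (Pf4, Ppbp and Xcr1) had enough counts, and Pf4 had 0, 0 and 1 against 12, 15 and 8.

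In NLPCs none of the 15 members tested passed the adjusted threshold in edgeR, where 4.74% of 20371 genes were higher and 5.96% were lower. At an unadjusted p under 0.05, 1 member passed (26.4% of all genes did), and 2 members did not overlap between the groups (35.2% of all genes did not). DESeq2, which tested 46 members, called 2 of them, and the fit with the replicate number as a block called 1. The shares of all genes called in these fits are not given here. The median log2 fold change of the 15 was 0.10, with 8 above and 7 below 0, against 0.04 over all genes. The 15 were 7 CC and 5 CXC ligands, Cx3cl1 and the receptors Cxcr4 and Ccr9. Of the 47 other members, 31 had between 1 and 40 counts in their highest library and 16 had none.

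In NLPCs Cxcr4, the receptor of Cxcl12 that guides neural progenitors, had the highest mean level per length (39.6 CPM per kilobase in WT), followed by Cx3cl1 (33.8), Ccl2 (6.71), Cxcl14 (4.89) and Ccl25 (4.68). The mean levels of the last 2 were close to each other. Cx3cl1 had 9298, 5496 and 9131 counts in WT and 5454, 1467 and 6250 in the libraries labelled Qk-/-. Each of the latter lay below each WT library after scaling (133 ± 3.03 against 84.5 ± 30.0 CPM; SD, n = 3), with a log2 fold change of −0.65 (SE 0.24, edgeR adjusted p = 0.132, unadjusted p = 0.0268). DESeq2 called it (adjusted p = 0.0387), and without the library labelled Qk-/- 2, the lowest, edgeR gave −0.38 (adjusted p = 0.00439). The spread between the libraries labelled Qk-/- was larger than that of WT in this gene.

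Cxcr4 had 4814, 3202 and 4708 counts in WT and 5522, 1631 and 6064 in the libraries labelled Qk-/- (log2 fold change 0.26, SE 0.21, edgeR adjusted p = 0.462). Cxcl14 had 600, 372 and 635 against 603, 261 and 800 (0.31, SE 0.17, adjusted p = 0.293). Without the library labelled Qk-/- 2 both were higher, Cxcr4 at 0.50 (edgeR adjusted p = 0.00128) and Cxcl14 at 0.45 (adjusted p = 0.0483). Cx3cl1 passed without this library too. Ccl2 had 491, 357 and 502 counts against 392, 146 and 530 (log2 fold change −0.12, SE 0.23, adjusted p = 0.766) and Ccl7 156, 88 and 88 against 127, 26 and 131 (−0.06, SE 0.46, adjusted p = 0.949). Neither of the CC ligands that rose in the lens differed beyond its spread here.

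Ccl25 (2704, 1338 and 2292 against 2033, 912 and 1830 counts), Cxcl10, an interferon-induced ligand of Cxcr3 (252, 152 and 207 against 73, 134 and 147), Ccl17, a ligand of Ccr4 (97, 86 and 45 against 63, 10 and 63), and Ccl28, a ligand of Ccr10 (125, 74 and 148 against 116, 79 and 81), had log2 fold changes of −0.09, −0.31, −0.68 and 0.10, with adjusted p-values of 0.537 to 0.893 in edgeR. Ccr9, the receptor of Ccl25, had 13, 48 and 7 counts against 38, 198 and 18 (log2 fold change 2.46, SE 1.30, adjusted p = 0.269), and 2.04 (adjusted p = 0.0431) with the replicate number as a block, the 1 call of that fit. Most of its counts lay in the libraries numbered 2 of both groups, and without Qk-/- 2 its log2 fold change was 0.09. Ccl6, which rose in the lens, had 0, 10 and 0 against 37, 62 and 14 counts (log2 fold change 3.75, SE 1.67, adjusted p = 0.199). The remaining 4 tested ligands, Ccl5, Cxcl5, Cxcl9 and Cxcl12, had at most 60 counts in a library and adjusted p-values of 0.357 to 0.886. Cxcr5, under the filter and chosen after its counts were seen, had 1, 0 and 0 against 4, 40 and 25 counts and was the second member called by DESeq2, and in edgeR with every gene of at least 1 count its adjusted p was 0.0334, and 0.121 without the library labelled Qk-/- 2 in that fit.

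Of the ligands that rose in the lens, Ccl8 and Ccl24 had no count in any NLPC library, and Ccl9 had 6, 0 and 17 counts in WT and 3, 0 and 7 in the libraries labelled Qk-/-. Ccr1 had 0, 0 and 0 against 4, 0 and 0. A library labelled WT held a count in 23 to 31 of the 62 members and one labelled Qk-/- in 29 to 35. The leukocyte markers summed to 1.70 to 2.20 CPM in WT and 3.01 to 8.78 CPM in the libraries labelled Qk-/-, with none of 5 tested called, and the macrophage markers to 10.3 to 12.7 against 13.6 to 18.2 CPM, with none of 7 called. Ptprc had 0, 32 and 34 against 6, 74 and 16 counts, Csf1r 10, 15 and 4 against 6, 42 and 18, and Adgre1 4, 8 and 10 against 1, 12 and 0. Of the lens markers that check the label of these cells, 4 of 10 had enough counts, and Mip, the main membrane protein of lens fibres, had 0, 0 and 2 against 3, 12 and 0. Cryab, a small heat shock crystallin that other cells make too, was lower (4190, 2965 and 4324 against 1648, 342 and 1735 counts), and the lens list summed to 143 to 156 against 96.8 to 118 CPM.

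Markers of neural cells were abundant in NLPCs and moved as well, where 4.74% of all genes tested were higher and 5.96% were lower. The astrocyte list summed to 6134 to 6409 CPM in WT and 3587 to 4301 CPM in the libraries labelled Qk-/-, with 2 of 6 lower (Slc1a3 and Gfap) and 1 higher (Aqp4). The neuron list stood at 1247 to 1320 against 1538 to 1668 CPM, with 2 of 5 higher (Map2 and Snap25). The list for fibroblasts and pericytes stood at 102 to 111 against 50.2 to 57.1 CPM, with 2 of 6 lower (Pdgfra and Cspg4), and that for microglia at 44.3 to 48.0 against 24.2 to 28.5 CPM, with 1 of 4 lower (Sall1). The 1 B cell marker tested, Pax5, was higher (13, 18 and 26 against 89, 382 and 99 counts). It was highest in the library labelled Qk-/- 2, and the other markers of that list did not have enough counts for the test. None of 2 neutrophil, 1 T and NK cell, 5 endothelial, 3 pigment cell and 5 retina markers passed, and no mast cell or erythroid marker was tested. The part of these markers in the chemokine levels was not tested.

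Of the surrounding lists, none of 4 atypical receptors (median log2 fold change 0.29) and none of 13 NF-κB genes (median −0.0015) passed. Over all genes tested in NLPCs, 4.74% were higher and 5.96% were lower. Of 12 inducers Tlr4 was higher (0.70, SE 0.11, edgeR adjusted p = 0.00582) and Tlr2 lower (−1.22, SE 0.31, adjusted p = 0.0430; median of the 12 −0.05). Of 22 signalling genes 2 were higher and 3 lower (median −0.04), with Plcb3 at −1.05 (SE 0.10, adjusted p = 0.000700), and of 13 processing and adhesion genes 2 were lower (median 0.40), with Vcam1, a ligand of leukocyte integrins, at −2.69 (SE 0.12, adjusted p = 0.000108).

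The effects in lens and NLPCs were compared in a joint fit of the genes in both tables, which tested 20 members. The change differed in 5 of them, each higher in Qk-iCKO lenses relative to Ctrl than in the libraries labelled Qk-/- relative to WT, where 8.53% of 16675 genes differed in either direction (edgeR, adjusted p under 0.05). The difference of the log2 fold changes, NLPC minus lens, was −6.95 for Ccl7 (SE 0.65, adjusted p = 8.54e-05), −5.50 for Ccl2 (SE 1.18, adjusted p = 0.0132), −3.49 for Cxcl14 (SE 0.72, adjusted p = 0.0110) and −3.12 for Cxcr4 (SE 0.89, adjusted p = 0.0496). The call for Cxcr4 was lost without Qk-iCKO 1 (−2.41, adjusted p = 0.187), without the library labelled Qk-/- 2 (−2.91, adjusted p = 0.0559) and with 8 of the other 10 libraries left out, and it was kept without Ctrl 3 or Qk-iCKO 2. For Ccl9 it was −10.93 (SE 1.39, adjusted p = 0.000637), fitted over a Ctrl group with 1 count. Ccl8 and Ccl24 were not informative in this test because they had no count in NLPCs. Ccl6 and Cx3cl1 did not pass (−3.22, SE 1.95, and −0.62, SE 0.40; adjusted p = 0.350 and 0.390).

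**Figure D3:**
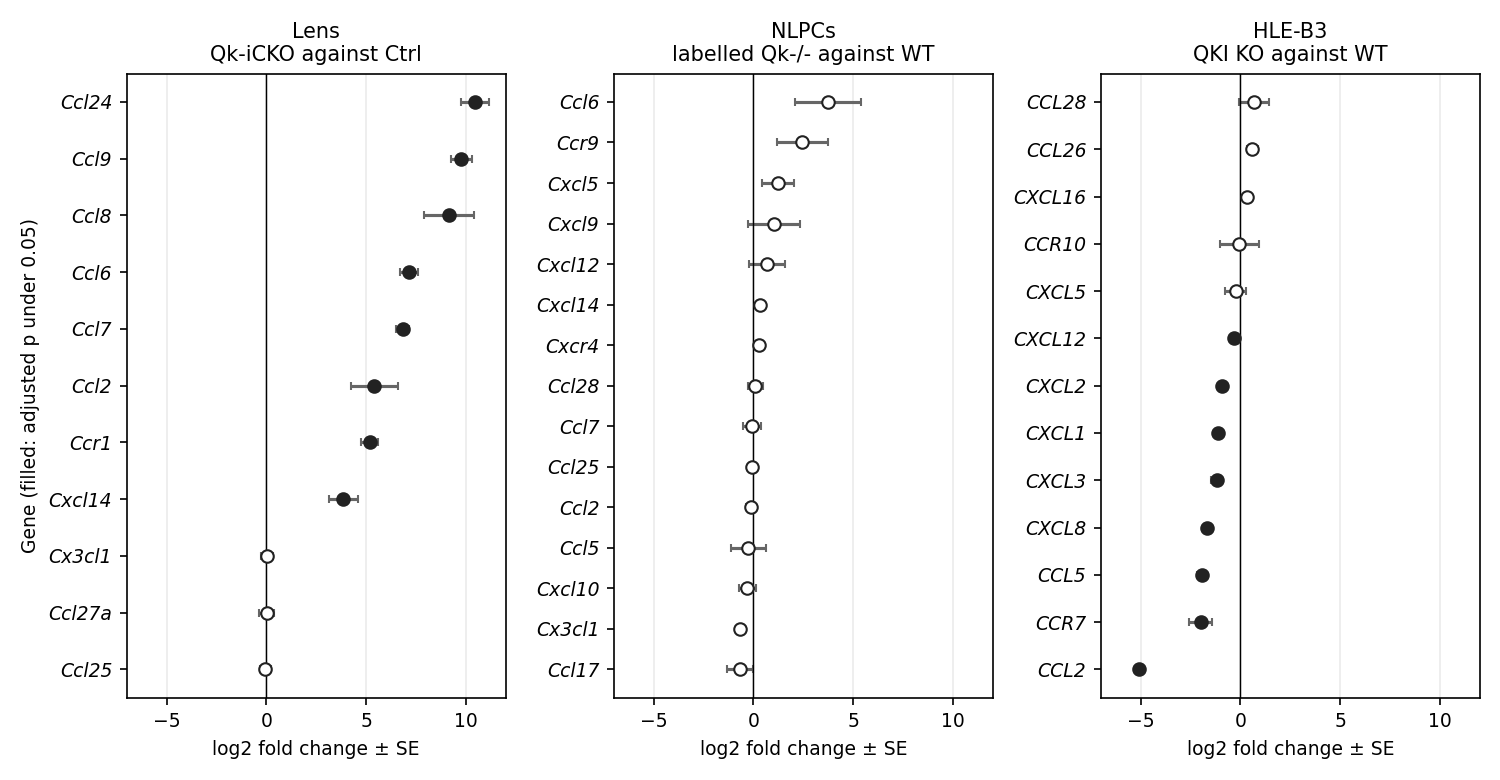
Fitted log2 fold change of deletion against control (edgeR, bars are 1 standard error) of the members tested in the lens (11), NLPCs (15) and HLE-B3 cells (13), with filled circles for an adjusted p under 0.05. The 8 filled circles of the lens lie above 0, none is filled in NLPCs, and the 8 of HLE-B3 cells lie below 0. The values of Ccl24 and Ccl8 in the lens are fitted against a group at 0 and depend on the prior count.

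In HLE-B3 cells 8 of the 13 members tested were lower in QKI KO than in WT and none was higher, where 16.3% of 19049 genes were lower and 17.0% were higher (edgeR, adjusted p under 0.05). The 8 were CCL2, CCL5, CXCL1, CXCL2, CXCL3, CXCL8, CXCL12 and the receptor CCR7. At an unadjusted p under 0.05 they were joined by CCL26, which was higher (41.3% of all genes passed that threshold in either direction). The groups did not overlap in 9 of the 13 members, these 8 and CCL26, where 44.6% of all genes did not overlap. The median log2 fold change of the 13 was −0.93 and that of all genes −0.02. Of the other 50 members, 20 had no count and 30 had between 1 and 25 counts in their highest library.

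**Figure D4:**
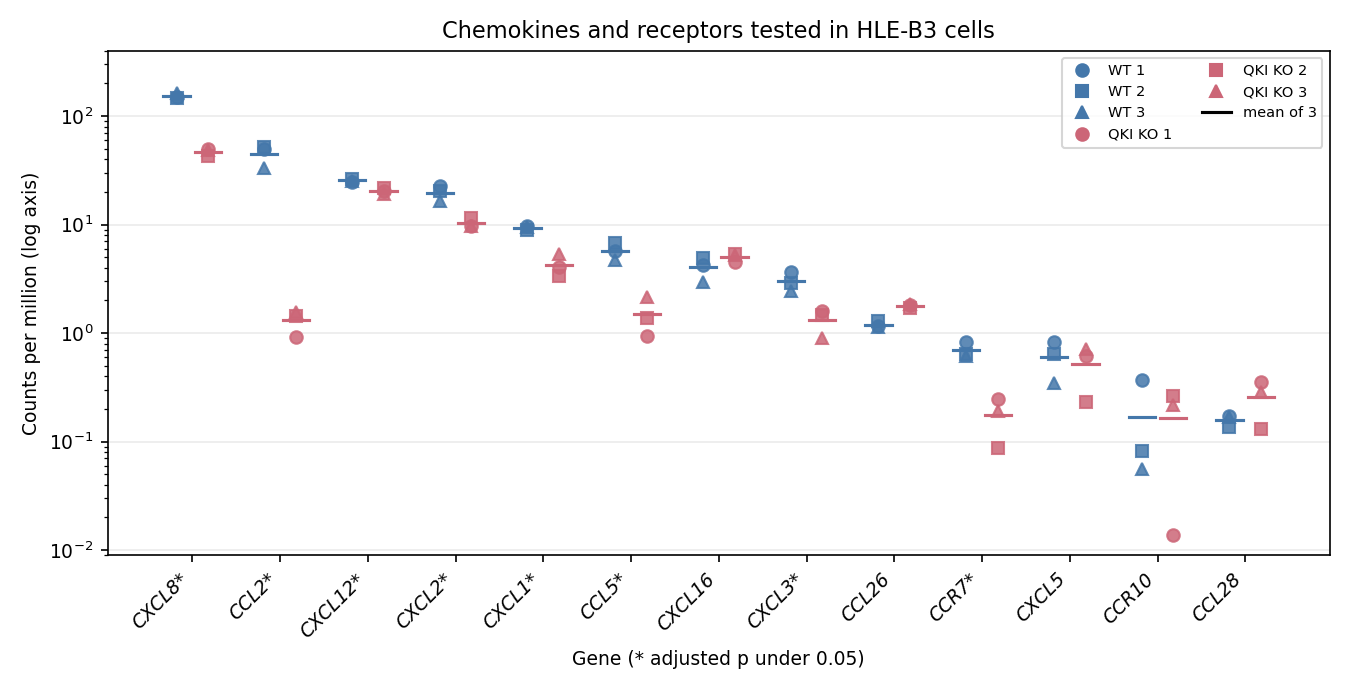
CPM (TMM library sizes, log axis) of the 13 members tested in HLE-B3 cells, per library of WT (blue) and QKI KO (red) cells, with a short line at the mean of 3 libraries. In the 8 genes with an asterisk every QKI KO library lies below every WT library, with the widest gap in CCL2 (44.7 ± 9.75 against 1.31 ± 0.338).

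CCL2, the monocyte attractant, changed most. It had 4019, 3746 and 2404 counts in WT and 68, 99 and 115 in QKI KO libraries, or 44.7 ± 9.75 against 1.31 ± 0.338 CPM (SD, n = 3), a 34.1-fold lower mean (log2 fold change −5.09, SE 0.19, edgeR adjusted p = 6.31e-12). In WT cells it was second in level per length (23.1 CPM per kilobase), after CXCL8 (59.0), and in QKI KO cells it stood at 0.677, lower than CXCL8, CXCL2, CXCL12, CXCL1, CCL26, CXCL16 and CCL5 (1.10 to 18.1). CCL5 (RANTES), a ligand of CCR1, had 467, 493 and 338 counts against 69, 95 and 159 (log2 fold change −1.94, SE 0.26, edgeR adjusted p = 2.10e-05). Per length, its highest QKI KO library (1.59) lay below its lowest WT library (3.45). CCL7, next to CCL2 in the genome, had 0, 4 and 0 counts against 0, 0 and 0.

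The neutrophil-attracting CXC ligands, which signal through CXCR2, were lower as well. CXCL8 (interleukin 8), the member with the most counts, had 12198, 10630 and 11685 in WT and 3634, 2933 and 3566 in QKI KO libraries (153 ± 9.01 against 46.9 ± 3.88 CPM; SD, n = 3; log2 fold change −1.70, SE 0.07, edgeR adjusted p = 3.31e-11). CXCL1 had 787, 647 and 678 counts against 297, 232 and 392 (log2 fold change −1.13, SE 0.16, adjusted p = 4.41e-05). CXCL2 had 1841, 1473 and 1173 against 712, 796 and 711 (−0.93, SE 0.12, adjusted p = 1.61e-05). CXCL3 had 300, 213 and 177 against 116, 102 and 66 (−1.19, SE 0.27, adjusted p = 0.00238). CXCL1, CXCL2 and CXCL3 thus fell by similar factors, smaller than that of CXCL8 and far smaller than that of CCL2, although the differences between the genes were not tested. Their sequences are close to each other, so a small part of the reads could be counted on the wrong gene of the 3. CXCL5, between them on the chromosome, had 68, 47 and 25 against 45, 16 and 52 counts and did not pass (log2 fold change −0.23, SE 0.53, adjusted p = 0.796).

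CXCL12, the ligand of CXCR4, had 2036, 1918 and 1827 counts against 1483, 1506 and 1410, the smallest change of the 8 (log2 fold change −0.32, SE 0.08, edgeR adjusted p = 0.00572). Its adjusted p was 0.0578 without QKI KO 3. CCR7, the receptor that guides lymphocytes and dendritic cells to lymph nodes, had 68, 47 and 44 against 18, 6 and 14 counts (−1.98, SE 0.57, adjusted p = 0.0131), and its adjusted p was 0.0571 without WT 1. Its ligands CCL19 and CCL21 had no count. The other receptor tested, CCR10, had 30, 6 and 4 against 1, 18 and 16 counts (−0.05, SE 0.99, adjusted p = 0.977), so that its groups overlapped widely.

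The members that were not lower include CCL26 (eotaxin-3), a ligand of CCR3, with 95, 94 and 81 counts against 134, 118 and 135 (log2 fold change 0.59, SE 0.27, edgeR adjusted p = 0.112), each QKI KO library above each WT library. CXCL16, a ligand anchored in the membrane, had 347, 356 and 214 against 328, 369 and 384 (0.31, SE 0.19, adjusted p = 0.235), and CCL28 14, 10 and 12 against 26, 9 and 21 (0.69, SE 0.75, adjusted p = 0.543). The ligand counts summed to 18678 to 22197 in WT and 6309 to 7054 in QKI KO libraries (260 to 272 against 91.4 to 96.3 CPM), and the receptor counts to 98 to 143 against 35 to 42. CXCR4 had 0, 0 and 0 against 0, 8 and 0 counts, so that CXCL12 was counted with almost no transcript of its main receptor, and CXCR2, chosen after its counts were seen, had 4, 6 and 24 against 0, 5 and 1.

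The 6 members between 74606236 and 74964913 of chromosome 4 (GRCh37) are CXCL8, CXCL6, CXCL1, CXCL5, CXCL3 and CXCL2. Of the 5 tested, 4 were lower. The 12 members between 34198495 and 34641846 of chromosome 17 include CCL5, the one tested, and 5 with no count. CCL2 was the one tested of 6 members between 32582293 and 32690252 of that chromosome.

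The promoters of 11 of the 13 members tested, 6 of them lower in QKI KO cells, were read from GRCh37 at the start of each gene's canonical GENCODE transcript and searched for the same motifs. They are shown because several of the genes that fell together share a string of letters near the start. The 150 bases before the start are printed 5′ to 3′ on the gene's strand, with matches to the κB consensus, the core GGAANTTCC and TGANTCA in capitals. CXCL5 is printed as the neighbour that did not pass:
CXCL8 (chr4:74606136-74606285, plus strand): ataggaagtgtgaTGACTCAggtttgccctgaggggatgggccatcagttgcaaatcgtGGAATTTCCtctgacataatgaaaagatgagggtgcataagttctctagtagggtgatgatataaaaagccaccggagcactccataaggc
CXCL1 (chr4:74734960-74735109, plus strand): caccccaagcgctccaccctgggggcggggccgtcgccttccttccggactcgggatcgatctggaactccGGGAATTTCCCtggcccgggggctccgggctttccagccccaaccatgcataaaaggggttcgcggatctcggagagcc
CXCL2 (chr4:74964913-74965062, minus strand): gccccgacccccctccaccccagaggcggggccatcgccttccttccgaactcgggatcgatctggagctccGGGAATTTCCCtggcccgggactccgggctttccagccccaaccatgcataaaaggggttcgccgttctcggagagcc
CXCL3 (chr4:74904407-74904556, minus strand): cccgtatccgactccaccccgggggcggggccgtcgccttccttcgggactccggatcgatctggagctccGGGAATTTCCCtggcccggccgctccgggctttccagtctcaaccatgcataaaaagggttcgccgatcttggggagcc
CXCL5 (chr4:74864395-74864544, minus strand): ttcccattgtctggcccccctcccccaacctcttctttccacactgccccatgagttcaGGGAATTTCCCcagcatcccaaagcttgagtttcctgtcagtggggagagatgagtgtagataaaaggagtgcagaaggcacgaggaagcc

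The κB consensus or the core was found in the 300-base window of 4 of these 6 members that were lower (CXCL8, CXCL1, CXCL2 and CXCL3) and of 2 of the 5 that were not called (CXCL5 and CXCL16), and in 13.1% of 19873 human promoters of this length. The printed promoters of CXCL1, CXCL2 and CXCL3 are alike over much of their length, so their matches are not independent of each other. The core itself stood in 0.941% of all promoters and in CXCL8, CXCL1, CXCL2, CXCL3 and CXCL5. It began at −78 in CXCL1 and CXCL3, at −77 in CXCL2, at −90 in CXCL5 and at −91 in CXCL8, with the first base of the transcript as position 0. Neither CXCL12 nor CCR7 held a κB match. The AP-1 motif, in 5.40% of all promoters, was found in CXCL8 at −137 and at 2 places in CCR7. The PU.1 motif, in 2.54% of all promoters, was found in CCR7 alone of the 11, on the opposite strand at −11 to −4. CXCL5 held the core and did not pass, with at most 68 counts in a library, so a change in it is not settled. The part of these motifs in the changes was not tested.

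**Figure D5:**
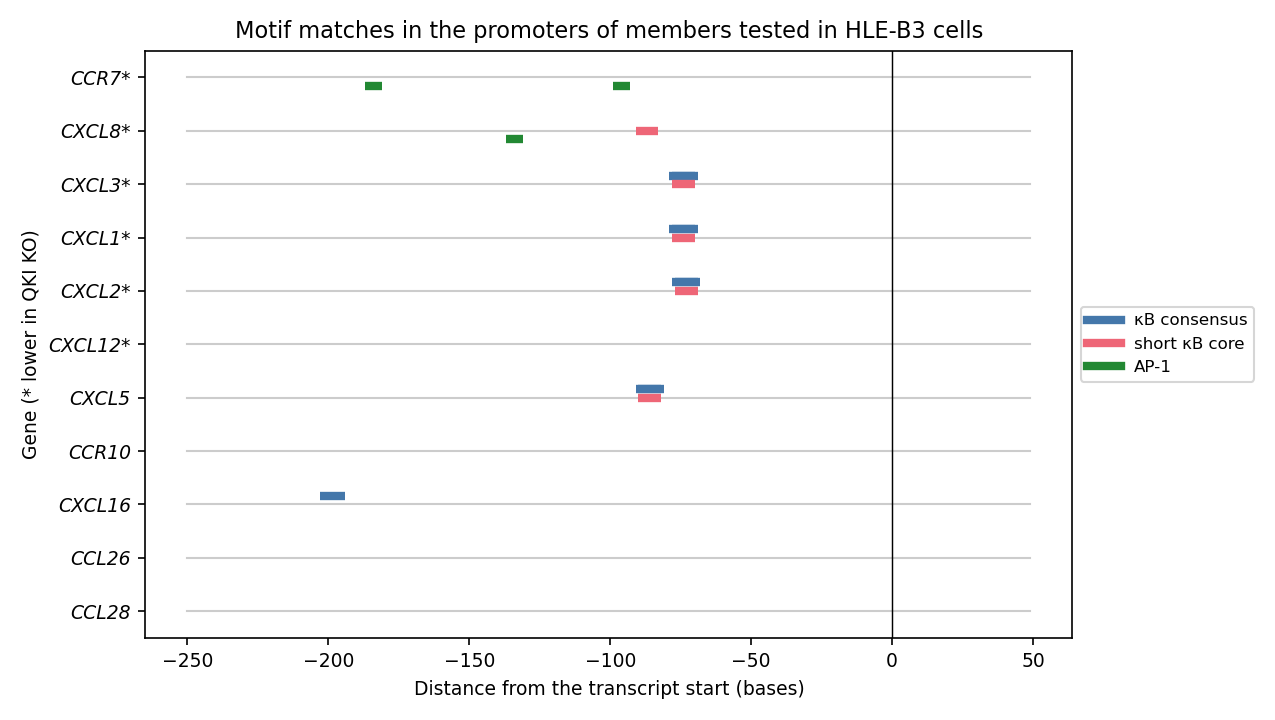
Matches to the κB consensus (blue), the short κB core (red) and the AP-1 motif (green) along the 300-base promoter window of 11 members tested in HLE-B3 cells, by distance in bases from the transcript start at 0, ordered from the lowest log2 fold change at the top. The κB matches of CXCL1, CXCL2, CXCL3, CXCL5 and CXCL8 lie between −91 and −68.

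Among the surrounding lists in HLE-B3 cells, 10 of 14 NF-κB genes were lower and 2 were higher (median log2 fold change −0.44), where 16.3% of all genes were lower. REL, a subunit of the factor, was at −1.26 (SE 0.08, edgeR adjusted p = 2.03e-09), NFKBIA at −0.64 (SE 0.07, adjusted p = 4.77e-06) and TNFAIP3, an inhibitor of the pathway that it also induces, at −0.66 (SE 0.08, adjusted p = 4.83e-06). Of 14 inducers 6 were lower and 1 was higher (median −0.45). IL1R1, the receptor of interleukin 1, was at −1.47 (SE 0.09, adjusted p = 1.43e-09), IRF1 at −1.03 (SE 0.07, adjusted p = 2.01e-08) and IL6 at −0.81 (SE 0.08, adjusted p = 5.65e-07). TLR2 had 77, 33 and 63 counts against 0, 0 and 1, the lowest value of the list (adjusted p = 2.69e-05). IL1A and IL1B, the ligands of IL1R1, were lower as well, with 403, 314 and 260 against 103, 102 and 136 counts and 648, 459 and 426 against 233, 239 and 215. Of 2 atypical receptors ACKR3, which clears CXCL12, was lower (3339, 2557 and 2552 against 1953, 1683 and 2000 counts; −0.51, SE 0.08, adjusted p = 0.000122).

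Of 21 genes for signalling from the receptors 8 were higher and 2 lower (median 0.16), with DOCK2 at 1.36 (SE 0.13, edgeR adjusted p = 3.46e-07). Of 9 genes for processing and adhesion 3 were higher and 1 lower (median 0.01). Over all genes tested in HLE-B3 cells, 17.0% were higher and 16.3% were lower. MMP2, a protease that cleaves CCL7 and CXCL12, was at −2.92 (SE 0.09, adjusted p = 1.30e-12) and ICAM1 at 0.65 (SE 0.09, adjusted p = 3.88e-05). In this single cell line the leukocyte markers summed to 2.65 to 3.38 CPM in WT and 1.12 to 1.62 CPM in QKI KO, with 2 of 3 tested lower, and the macrophage markers to 4.01 to 5.77 against 2.68 to 2.87 CPM, with 1 of 5 lower (CSF1R, with 237, 200 and 198 against 104, 76 and 74 counts). PTPRC had 0, 0 and 0 against 16, 0 and 0 counts. Of the lens markers 4 of 10 had enough counts, and the list summed to 622 to 731 CPM in WT and 1003 to 1155 CPM in QKI KO cells. CRYAB was higher (46534, 40177 and 34398 against 73093, 60330 and 74368 counts), while GJA3, a connexin of lens fibres, was lower (362, 312 and 322 against 115, 97 and 87).

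Other marker lists moved in HLE-B3 cells too, where 17.0% of all genes tested were higher and 16.3% were lower. The list for fibroblasts and pericytes summed to 3757 to 3855 CPM in WT and 1949.9 to 2260.3 CPM in QKI KO cells, with 3 of 7 lower (COL1A1, PDGFRB and CSPG4) and LUM higher. All 4 neuron markers tested were lower (34.0 to 37.8 against 17.1 to 21.3 CPM), as were 1 of 2 astrocyte markers (22.3 to 25.7 against 14.98 to 16.7 CPM) and 1 of 2 microglia markers (4.43 to 5.03 against 2.58 to 3.63 CPM). Of 4 endothelial markers EGFL7 was higher and TIE1 lower, and the 1 mast cell marker tested, CPA3, was higher (17, 3 and 0 against 34, 101 and 35 counts). None of the 1 B cell, 1 pigment cell, 2 retina and 1 oligodendrocyte markers passed, and no neutrophil, T and NK cell or erythroid marker was tested. The part of these markers in the chemokine levels was not tested.

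The gene for the monocyte attractant was the one chemokine called in lens and in HLE-B3 cells, in opposite directions: the log2 fold change of Ccl2 was 5.42 in Qk-iCKO lenses, −0.12 in the libraries labelled Qk-/- and −5.09 (CCL2) in QKI KO cells. The difference between mouse and human systems was not tested, since the tables hold different genes, organisms and protocols. By count per library Ccl2 stood at 2 to 6 in Ctrl lenses, 357 to 502 in NLPCs labelled WT and 2404 to 4019 in WT HLE-B3 cells. The total counts differed between these systems, and the mean levels in the same order were 0.266, 7.64 and 44.7 CPM.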

How the data were processed

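RNA was measured by stranded TruSeq RNA-seq in 18 libraries, 3 per group. The authors deposited raw counts per gene, not normalized, in 1 table per system. The study's methods name STAR 2.6.1b and HTSeq 0.11.0 with mm10 and hg19, and the submitters' processing notes also name HISAT2 2.0.4 and featureCounts, so which of them made the lens table is not known here. All counts were fitted as deposited, each table by itself, with edgeR 4.0.16 (R 4.3.3): TMM factors, genes kept with filterByExpr (count of 10, total of 15), quasi-likelihood test, Benjamini-Hochberg adjustment over all genes tested, threshold 0.05. The standard error was the log2 fold change divided by the root of F. CPM used TMM library sizes, and CPM per kilobase used exon lengths of the GENCODE models of mm10 (GRCm38) and hg19 (GRCh37). The smallest p of an exact permutation test of 3 against 3 libraries is 0.10, so none was used for single genes. Floors were 3 counts over a group, and 95% intervals of ratios cover counting error only. The script was tested on simulated data.

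The members and the gene lists were chosen with earlier results of these data known. Members that passed the filter could be named, and those under it by number or where they passed in another system. In each pathway list at most the 5 genes with the smallest p among those past the threshold could be named, besides Ptprc, Csf1r and Adgre1. Members named under the filter, Pf4, Mip and list genes outside the first 5 were chosen after their values were seen. A few genes and promoters are not reported here.

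The study states independent biological replicates for its animal and cell line work, but does not link each library to an animal or culture. The p-values measure the spread between these samples. For NLPCs separate cultures are not stated by name, so their spread may be technical. Same-numbered libraries deviated together in the lens (correlations of 0.23, 0.13 and 0.52) and in NLPCs (0.12, 0.32 and 0.15). Some libraries with different numbers did too, such as Ctrl 2 with Qk-iCKO 1 (0.28) and WT 1 with Qk-/- 3 in NLPCs (0.23). The labels give no pairing, so the main tests were unpaired and the block by replicate number was an alternative. Alternatives were DESeq2 1.42.0, RLE size factors, total counts, TMM without crystallins in the lens, both filters, a replicate block and leaving out each library.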

Additional observations from a re-analysis of the deposited data

Results flagged for a closer look

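Each of 5 members responded differently in lens and NLPCs, by the test of the difference itself (edgeR interaction term, Benjamini-Hochberg adjusted over 16675 genes), with 3 libraries in each of 4 groups. The difference of the log2 fold changes, NLPC minus lens, was −6.95 for Ccl7, −10.93 for Ccl9, −3.49 for Cxcl14, −5.50 for Ccl2 and −3.12 for Cxcr4, with adjusted p-values of 8.54e-05, 0.000637, 0.0110, 0.0132 and 0.0496. Without 1 library the call for Cxcr4 was lost for 10 of 12 libraries (adjusted p of 0.0559 to 0.187), Qk-iCKO 1 and the library labelled Qk-/- 2 among them, and the other 4 calls were kept for each. In all 5 the 3 Qk-iCKO libraries lay above the 3 Ctrl libraries in counts, while the NLPC groups overlapped. The lens and NLPC libraries differ in tissue, protocol and depth, and the part of these in the differences was not tested.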

How the results depend on the processing

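Of the members, the 8 lens calls and the 8 HLE-B3 calls were kept under DESeq2, RLE size factors, total counts alone and the replicate block. The shares of all genes called in the alternative fits are not given here, so the counts of calls below have no share beside them. With at least 10 counts in every library, 0 lens members (of 3 tested) and 0 interaction members (of 2) were called, because the genes near 0 in Ctrl leave the test, and 12 of the lens list genes against 27. With every gene of at least 1 count the calls were 14 in the lens, 3 in NLPCs and 9 in the interaction, against 8, 0 and 5. Without Qk-iCKO 1 and without the library labelled Qk-/- 2 the latter fit, in an alternative chosen after seeing the data, called 10 members in the lens and 3 in NLPCs. In NLPCs 1 member passed unadjusted, 2 by DESeq2 and 1 with the replicate block, and DESeq2 called 14 list genes against 9. Leaving out 1 library gave 7 to 9 members in the lens, 0 to 3 in NLPCs, 7 to 8 in HLE-B3 cells and 4 to 5 in the interaction, and 16 to 33 (fewest without Ctrl 1, and 17 without Ctrl 3), 4 to 15 (fewest without WT 1, and 5 without WT 2, WT 3, Qk-/- 1 or Qk-/- 3; most without Qk-/- 2) and 28 to 36 list genes against 27, 9 and 34. Total counts alone moved the median of all lens genes to 0.29. The sign of uncalled members turned for lens Ccl27a by DESeq2 (−0.012), every gene (−0.017) and the replicate block (−0.024), lens Cx3cl1 (block −0.014), lens Ccl25 (total counts 0.20), NLPC Ccl5 (block 0.11) and CCR10 (block 0.20). With 1 library left out the log2 fold changes ran from −0.34 to 0.31 for lens Ccl27a, −0.32 to 0.26 for lens Cx3cl1, −0.21 to 0.10 for lens Ccl25, −0.85 to 0.027 for NLPC Cxcl10, −0.28 to 0.26 for NLPC Ccl7, −0.36 to 0.072 for NLPC Ccl2, −0.76 to 1.17 for NLPC Cxcl12, −0.15 to 0.30 for NLPC Ccl28, −0.17 to 0.0032 for NLPC Ccl25, −0.72 to 0.59 for NLPC Ccl5, −0.54 to 1.24 for CCR10 and −0.51 to 0.12 for CXCL5. The cause of these turns was not tested. In HLE-B3 cells the same-numbered libraries did not deviate together (correlations of 0.061, 0.057 and −0.049), and the replicate block called the same 8 members. Depth limits the members under the filter, none of which had over 42 counts in a library.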
